A study of Homo sapiens with 5 samples.

Results

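Small nucleolar RNA host genes are long non-coding RNA genes whose introns carry the genes of small nucleolar RNAs. The small RNAs are cut out of the spliced introns and guide the chemical modification of other RNAs, mainly ribosomal RNA: box C/D RNAs guide ribose methylation, box H/ACA RNAs guide pseudouridylation, and Cajal body RNAs guide the modification of spliceosomal RNAs. The spliced exons of several hosts are degraded quickly by nonsense-mediated decay, and some hosts, GAS5 among them, belong to the growth-regulated genes whose transcripts begin with a tract of pyrimidines, as those of ribosomal protein genes do.

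The members were chosen by symbol from the RefSeq gene table of assembly GRCh38.p14: all genes named SNHG followed by a number, with GAS5 and ZFAS1. There were 31 such genes among 59094 genes on chromosomes 1 to 22 and X. They ranged in length from 340 bp (SNHG25) to 595855 bp (SNHG14), with a median of 5145 bp. Together they held 147 small RNA genes, of which 83 box C/D genes lay in SNHG14. The other 64 were 38 box C/D, 22 box H/ACA and 4 Cajal body RNA genes, and SNHG27 and SNHG28 held 0.

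The data came from PRO-seq, in which engaged polymerases in isolated nuclei add biotin-labelled nucleotides and the captured RNA is sequenced, in HUDEP-2, a human cell line of immortalised erythroid precursors. Of the 5 libraries in the series, 2 are from wild-type cells and 3 from edited clones (guide sg1617, directed at the BCL11A enhancer). The clones carry a 1 bp insertion, a 13 bp deletion or a 15 bp deletion, and each is 1 library. The deposited lists hold 14124 forward and 14159 reverse positions called by TSScall from the 5′ ends of nascent RNA. They were made from 1 alignment whose name carries no edit and is not a sample title, so they cannot be divided by library, no edited group is compared here, and there are no replicates. The number of reads behind a call is unknown. All 9 erythroid markers examined were called at their gene end, and 0 of 5 lymphoid, 0 of 5 myeloid and 0 of 5 neuronal markers were.

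Sequences around the called base are shown for some hosts, most of them picked for their pyrimidines, and do not stand for all hosts. They are taken from the RefSeq promoter table (GRCh38.p14), which held 27 of the 31 members, and are printed 5′ to 3′ on the strand of the gene, from 15 bases before the called base to 25 after it. Capitals begin at the called base and run to the end of its unbroken stretch of C and T. After SNHG1, the host with the most box C/D genes called to the base, they show hosts called at, or within 2 bases of, a C followed by at least 4 pyrimidines.
SNHG1: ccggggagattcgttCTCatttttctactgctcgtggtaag
SNHG5: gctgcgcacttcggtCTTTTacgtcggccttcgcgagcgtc
SNHG16: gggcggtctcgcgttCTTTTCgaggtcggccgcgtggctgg
ZFAS1: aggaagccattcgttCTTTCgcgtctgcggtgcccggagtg
SNHG4: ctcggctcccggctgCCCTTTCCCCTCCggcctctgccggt
SNHG7: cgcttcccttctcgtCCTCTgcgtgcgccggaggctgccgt
SNHG32: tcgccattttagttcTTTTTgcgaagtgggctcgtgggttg
SNHG19: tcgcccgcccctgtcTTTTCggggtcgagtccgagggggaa
SNHG12: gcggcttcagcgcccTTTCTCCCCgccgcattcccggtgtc

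These windows lie at chr11:62855860-62855900 (SNHG1, reverse strand), chr6:85678708-85678748 (SNHG5, reverse), chr17:76557754-76557794 (SNHG16, forward), chr20:49278627-49278667 (ZFAS1, forward), chr5:139274086-139274126 (SNHG4, forward), chr9:136728160-136728200 (SNHG7, reverse), chr6:31834902-31834942 (SNHG32, forward), chr16:2155332-2155372 (SNHG19, reverse) and chr1:28581846-28581886 (SNHG12, reverse). SNHG1 differs from the others in that its C is followed by only 2 pyrimidines before an A, with a longer stretch of T beyond it. For contrast, SNHG21, SNHG30 and SNHG31 were called at a purine, at chr15:82750557-82750597, chr17:35568092-35568132 and chr2:214810204-214810244, all on the forward strand.
SNHG21: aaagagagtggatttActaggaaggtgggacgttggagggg
SNHG30: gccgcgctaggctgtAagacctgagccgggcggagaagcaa
SNHG31: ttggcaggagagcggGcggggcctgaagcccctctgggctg

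A pyrimidine tract was counted when the called base was C and at least 4 further C or T followed. Of 18 members with a call close enough to a RefSeq transcript start for the table to cover its surroundings (SNHG12 and the second call of ZFAS1 included), 5 had such a tract at the called base (27.8%): SNHG4, with 12 pyrimidines after the C, SNHG16 with 5, and SNHG5, SNHG7 and ZFAS1 with 4 each. Among all genes of the table with such a call the share was 2.46%, among other lncRNA genes 1.6%, among protein-coding genes 2.51% and among ribosomal protein genes 73.8% (45 of 61). With the C allowed to lie up to 2 bases either side of the call, 10 of the 18 members had one (55.6%). The share was 7.97% of all genes, 8.47% of other lncRNA genes, 7.78% of protein-coding genes and 93.4% of ribosomal protein genes. In both counts pyrimidines could also precede the C, so the call need not mark where the stretch begins. The members added by this were SNHG8, SNHG12, SNHG19, SNHG26 and SNHG32. The host share lay between those of all genes and of ribosomal protein genes in both counts, and no test was made on it. Both counts include SNHG4 and SNHG7, whose annotated starts are shared with MATR3 and LOC124900276 on the same strand. Their tracts cannot be assigned to the host alone.

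The called base itself was C or T in 15 of 18 members (83.3%), in 96.7% of ribosomal protein genes and in 53.6% of all genes. A C at the call with an A directly after it, the usual initiator pair placed 1 base early, was found in 34.1% of all genes, 4.92% of ribosomal protein genes and 3 of 18 members (SNHG17, SNHG22 and SNHG33). A C before and an A at the call was found in 1.49% of all genes. Differences of 1 base between a call and an annotated start are therefore not interpreted.

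**Figure D1:**
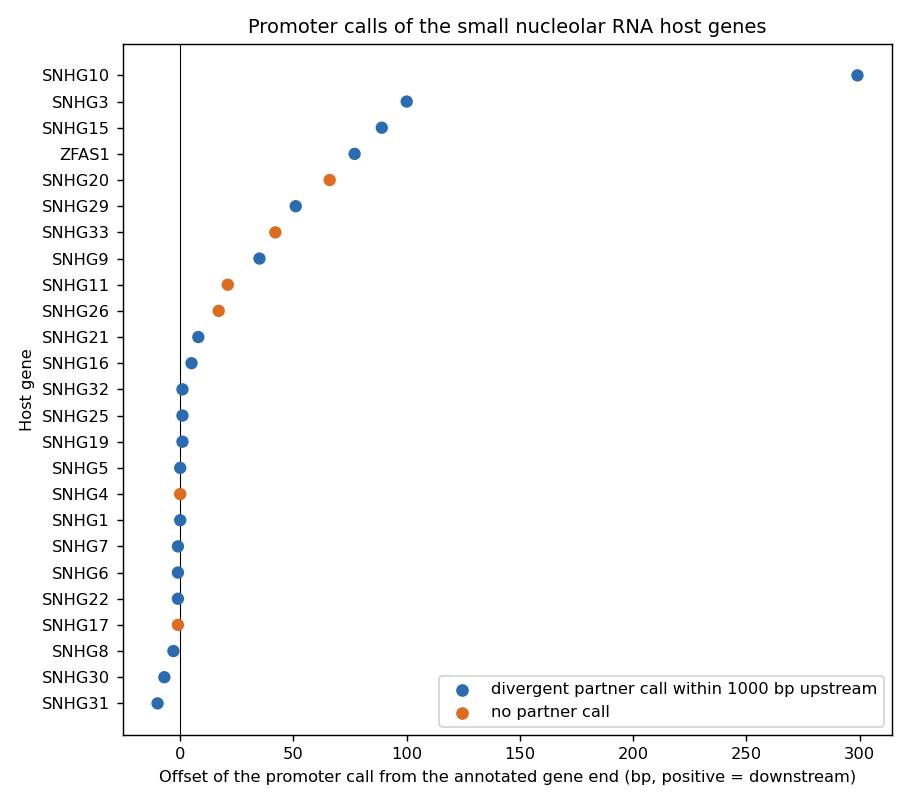
Offset of the promoter call from the annotated gene end in the 25 called host genes (horizontal axis, bp, positive downstream), 1 point a gene. Blue points had a divergent call within 1000 bp upstream and orange points had none. Of the 25 points 15 lie within 10 bp of 0, and SNHG10 stands farthest out at 299 bp.

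A promoter call was a call on the strand of the gene within 500 bp of its annotated 5′ end. Such a call was found in 25 of 31 members (80.6%, Wilson 95% interval 63.7 to 90.8%, counting error over genes only). The share was 9.14% of 18146 other lncRNA genes, 15.5% of 84 microRNA host lncRNA genes, 41.6% of 19970 protein-coding genes and 91.7% of 84 ribosomal protein genes. The lists of the hosts and of the comparison classes were chosen with results of these data known, so the shares are set side by side without a test. In a bulk list a gene can be uncalled because few cells, or all cells at a low rate, transcribe it. By the rule used here it is also uncalled when its own-strand calls lie more than 500 bp inside, as in GAS5, SNHG12 and SNHG14.

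The calls sat close to the annotated ends. The median offset was 1 bp, the range -10 bp (SNHG31) to 299 bp (SNHG10), and 15 of the 25 lay within 10 bp. The share within 10 bp was 60% (Wilson 95% interval 40.7 to 76.6%). Called protein-coding genes had a median of 3 bp, with 49.9% within 10 bp. Called microRNA hosts, 13 genes, had a median of -1 bp, with 46.2% (23.2 to 70.9%). Both shares lay inside the interval of the hosts, which gives counting error over genes only and is no test. Other called lncRNA genes had a median of 12 bp, with 26.5% within 10 bp, and ribosomal protein genes a median of 0 bp, with 79.2%. SNHG1, SNHG4 and SNHG5 were called at the exact annotated base. SNHG6, SNHG7, SNHG17 and SNHG22 were called 1 bp upstream, and SNHG19, SNHG25 and SNHG32 1 bp downstream. SNHG10 (299 bp), SNHG3 (100 bp), SNHG15 (89 bp), ZFAS1 (77 bp), SNHG20 (66 bp) and SNHG29 (51 bp) were called farthest inside.

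For 4 members (SNHG6, SNHG9, SNHG15 and SNHG25) the promoter table gave no strand, and the strand was read from the end that was called. SNHG25 met the rule at both ends, with a forward call 1 bp inside its left end and a reverse call 212 bp past its right end, and the nearer call was used. Some promoter calls cannot be assigned to the host alone. The SNHG3 call, at 28506043 on chromosome 1, was the exact RefSeq start of RCC1, a regulator of the Ran cycle read in the same direction. SNHG4 and MATR3, which encodes a nuclear matrix protein, share their first base, as do SNHG7 and the gene LOC124900276 on the same strand. The SNHG20 call lay 24 bp past the start of SEC14L1, also on the same strand. The promoter window of SNHG6 lies inside another named gene.

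Among the 6 members without a promoter call, GAS5 and SNHG12 were called farther inside the gene. In GAS5 (gene ID 60674, chromosome 1, 173863901 to 173869045, reverse strand) the first own-strand call lay at 173867989, 1056 bp inside the outer gene end. In SNHG12 (gene ID 85028, chromosome 1, 28578538 to 28582983, reverse strand) it lay at 28581871, 1112 bp inside the outer end but 2 bp from another RefSeq transcript start. ZFAS1 likewise had a second call, 464 bp inside the gene, at the exact base of its RefSeq transcript start in the promoter table. SNHG18, SNHG27 and SNHG28 had 0 own-strand calls.

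SNHG14, the host in the Prader-Willi region whose RNA runs antisense to UBE3A, had no call at its own start. Its 1 own-strand call lay 131380 bp inside, at 24954988 on chromosome 15, 1 bp from the RefSeq start of SNRPN, which is read on the same strand. Reverse calls lay at 24956307 and 24956690. None of the 83 small RNA genes in SNHG14 had a call within 20 bp of its 5′ end.

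**Figure D2:**
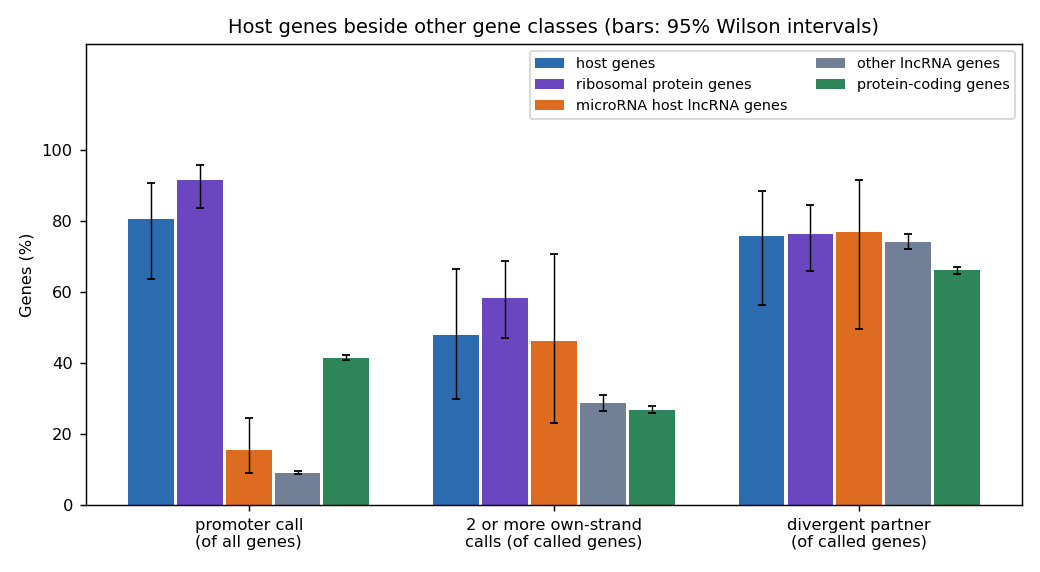
Percentage of genes with a promoter call, of called genes with 2 or more own-strand calls, and of called genes with a divergent partner call, in 5 gene classes; error bars are Wilson 95% intervals over genes. The host genes stand at 80.6%, 48% and 76%, next to 9.14%, 28.8% and 74.3% for other lncRNA genes.

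Divergent calls accompanied most starts. Of the 25 called members 19 (76%) had a call of the other strand 0 to 1000 bp upstream. The median distance was 226 bp, with extremes of 52 bp (SNHG6) and 535 bp (SNHG31). The share was 74.3% of called other lncRNA genes, 66.2% of called protein-coding genes, 76.9% of called microRNA hosts and 76.6% of called ribosomal protein genes, so the share in the hosts was near the background. SNHG4, SNHG11, SNHG17, SNHG20, SNHG26 and SNHG33 had no partner. GAS5 and SNHG12, counted from their first own-strand call, had partners 390 and 183 bp away.

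Some partners were starts of annotated genes. Upstream of SNHG1, the start of SLC3A2, the heavy chain of amino acid transporters, lay 224 bp away on the other strand and was called 51 bp inside. GLRX5, a mitochondrial glutaredoxin of iron-sulfur cluster assembly, started 178 bp upstream of SNHG10 and was called at its exact start. BARD1, the partner of BRCA1, started 546 bp upstream of SNHG31 and was called at -1 bp, and TRAF7, a ubiquitin ligase, 424 bp upstream of SNHG19 and was called at -8 bp. The start of ZBTB37, a zinc finger gene, lay 665 bp inside the outer end of GAS5 and was called at -1 bp. SEMA5A, 125 bp upstream of the uncalled SNHG18, had no call.

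The spacing of such a pair can be seen in the promoter windows of SNHG7 and SNHG21, printed from 250 bases before the RefSeq start to 50 from it. The first capital is the base of the divergent call and the second that of the promoter call. SNHG7 is shown at chr9:136728135-136728434 (reverse strand), with the calls 131 bp apart, and SNHG21 at chr15:82750314-82750613 (forward strand), with the calls 81 bp apart.
SNHG7: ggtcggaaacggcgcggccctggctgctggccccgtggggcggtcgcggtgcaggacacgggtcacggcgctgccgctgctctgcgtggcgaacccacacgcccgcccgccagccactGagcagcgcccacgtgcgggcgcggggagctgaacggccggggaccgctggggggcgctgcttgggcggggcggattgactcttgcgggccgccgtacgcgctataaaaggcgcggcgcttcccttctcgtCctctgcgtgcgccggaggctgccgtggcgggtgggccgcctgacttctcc
SNHG21: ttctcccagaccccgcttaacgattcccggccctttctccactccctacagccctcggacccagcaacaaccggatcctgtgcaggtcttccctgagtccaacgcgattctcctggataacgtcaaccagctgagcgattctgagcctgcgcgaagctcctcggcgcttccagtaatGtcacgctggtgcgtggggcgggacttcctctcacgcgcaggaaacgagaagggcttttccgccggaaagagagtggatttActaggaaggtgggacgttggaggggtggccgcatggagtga

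The letters TATAAA stood on the gene's strand between 40 and 16 bases before the call in SNHG7 and SNHG19 (2 of 18 members), and 1.58% of all genes with a sequence at the call had them there. Over the whole windows and both strands, TATAAA was found in 4 of 27 members (14.8%) and in 14% of all genes, CACGTG in 2 (7.41% and 8.79%) and CGGAAG in 6 (22.2% and 22.6%), all near the background. SNHG7 held both CACGTG and TATAAA, and SNHG11 and SNHG19 both TATAAA and CGGAAG.

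Repeated calls on the strand of the host were found in 14 of the 31 hosts, and most of those other than promoter calls lay at small RNA genes. Whether a new RNA was initiated at such a call was not tested. Counting calls from 500 bp upstream to the far end of the gene, the 31 members held 81 own-strand calls. Of these 25 were promoter calls. Of the other 56, the SNHG14 call included, 32 (57.1%) lay within 10 bp of the annotated 5′ end of a small RNA gene inside the host. Such windows made up 0.338% of the pooled length of the hosts outside SNHG14. That length includes long hosts with only a promoter call, such as SNHG31 (153377 bp) and SNHG22 (37037 bp). The share is therefore no expected value for the hosts with repeated calls. A further 6 lay elsewhere inside a small RNA gene, 2 at another RefSeq transcript start and 16 in none of these places. The distance of 10 bp was chosen after the distances had been seen.

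**Figure D3:**
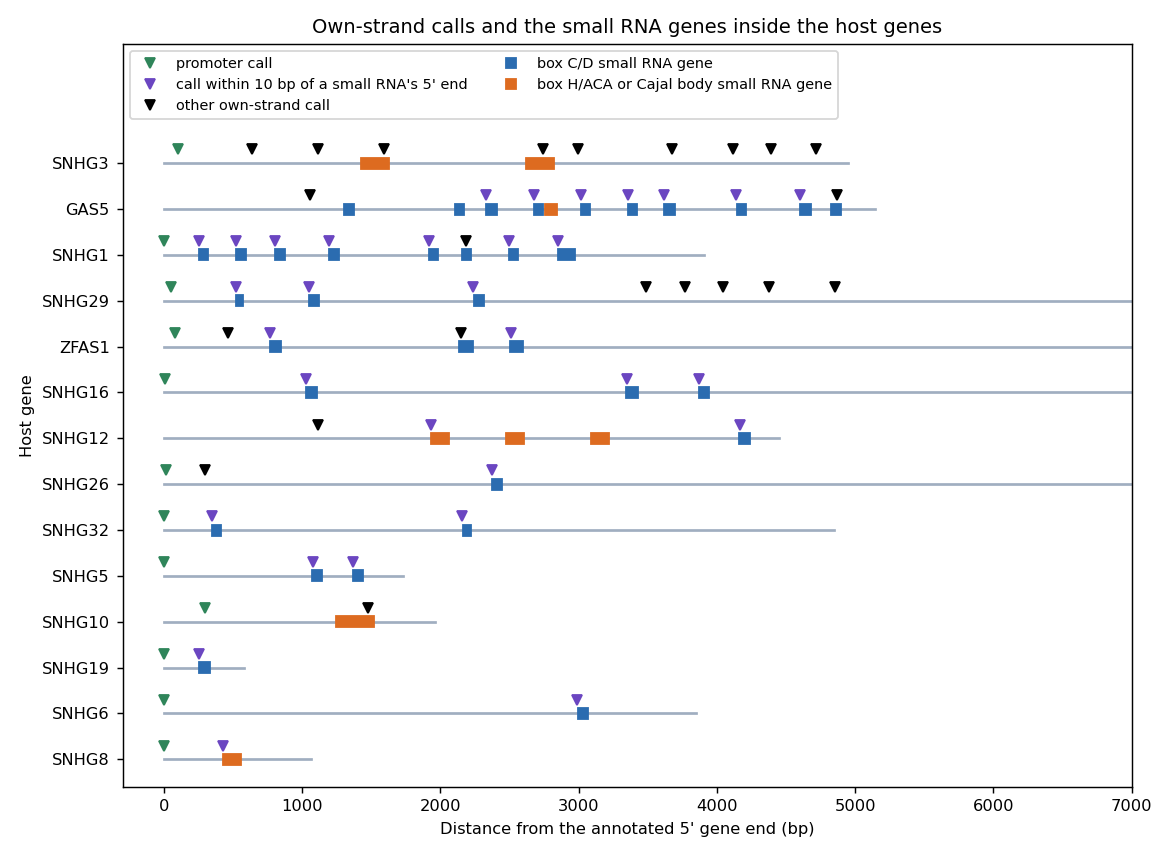
Own-strand calls (triangles) and small RNA genes (boxes) along the 14 host genes with 2 or more own-strand calls, by distance from the annotated 5′ gene end in bp; grey lines are the genes, longer ones ending at the edge of the plot, and a ZFAS1 call at 10858 bp is not drawn. The purple triangles, calls within 10 bp of a small RNA's 5′ end, stand at the left edges of the boxes, most of them box C/D genes (blue), whereas SNHG3 holds black triangles away from them.

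SNHG1 (gene ID 23642, chromosome 11, 62851978 to 62855885, reverse strand) had 7 such calls, as many as GAS5. It holds 8 box C/D genes in its 3908 bp and 9 own-strand calls. After the promoter call at 0 bp, calls lay 254, 519, 802, 1190, 1917, 2492 and 2849 bp into the gene. Those at 254, 519, 802, 1190, 1917 and 2492 bp were the exact first bases of SNORD25, SNORD26, SNORD27, SNORD28, SNORD29 and SNORD31, and the call at 2849 bp was 1 bp before SNORD22. The remaining call, at 2182 bp, lay 29 bp inside SNORD30.

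GAS5 holds 10 box C/D genes, 1 box H/ACA gene and 9 own-strand calls. Calls coincided with the first base of SNORD44 and SNORD47, lay 1 bp from that of SNORD78, and 2 bp from those of SNORD76, SNORD77, SNORD79 and SNORD80. A call 45 bp into SNORD81 and the call at 1056 bp, 244 bp before SNORD74, made up the rest. SNORD74, SNORD75 and SNORA103 had no call within 10 bp.

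Calls stood at small RNA ends in 11 of the 14 box C/D hosts outside SNHG14, all but SNHG18, SNHG25 and SNHG30. In SNHG16 the 3 calls past the promoter lay 4 bp into SNORD1C, SNORD1B and SNORD1A. In SNHG5 they lay at the first base of SNORD50A and 1 bp into SNORD50B, and in SNHG32 at the first base of SNORD48 and 1 bp before SNORD52. SNHG29 had calls 4 bp before SNORD49B, at the first base of SNORD49A and 3 bp before SNORD65. SNHG6, SNHG19 and SNHG26 each had 1 such call, 2 bp before SNORD87, 1 bp before SNORD60 and at the first base of SNORD93. ZFAS1 had calls at the first base of SNORD12C, 6 bp into SNORD12 and 11 bp into SNORD12B, of which the last falls outside the limit. SNHG12 had a call 3 bp into SNORD99.

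Counted by small RNA gene, outside SNHG14 30 of 38 box C/D genes (78.9%) had an own-strand call within 10 bp of their 5′ end, in 11 of 14 hosts. The median distance of these 30 was 0 bp, with a range of -4 to 6 bp, and 13 were matched to the base. As at the gene ends, differences of 1 base are not interpreted. In other classes a call of either strand could match, forward at the small RNA's left end or reverse at its right end. Counted so, the hosts outside SNHG14 also gave 30 of 38. The share was 35 of 42 box C/D genes in ribosomal protein genes (83.3%) and 43 of 129 in other protein-coding genes (33.3%). It was 0 of 43 in other lncRNA genes and 6 of 22 outside these genes (27.3%). Most of the 43 were SNORD113 and SNORD114 genes, which were kept, whereas the SNHG14 genes were left out of the host count. With SNHG14 the hosts had 30 of 121 (24.8%). Of the box H/ACA genes 2 of 22 were matched (9.09%), SNORA24 in SNHG8 at 0 bp and SNORA16A in SNHG12 at -1 bp, against 6 of 18 in ribosomal protein genes (33.3%) and 2.52% in other protein-coding genes. Of the 4 Cajal body RNA genes, only SCARNA17 was matched, by the promoter call of SNHG22, whose annotated start it shares.

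**Figure D4:**
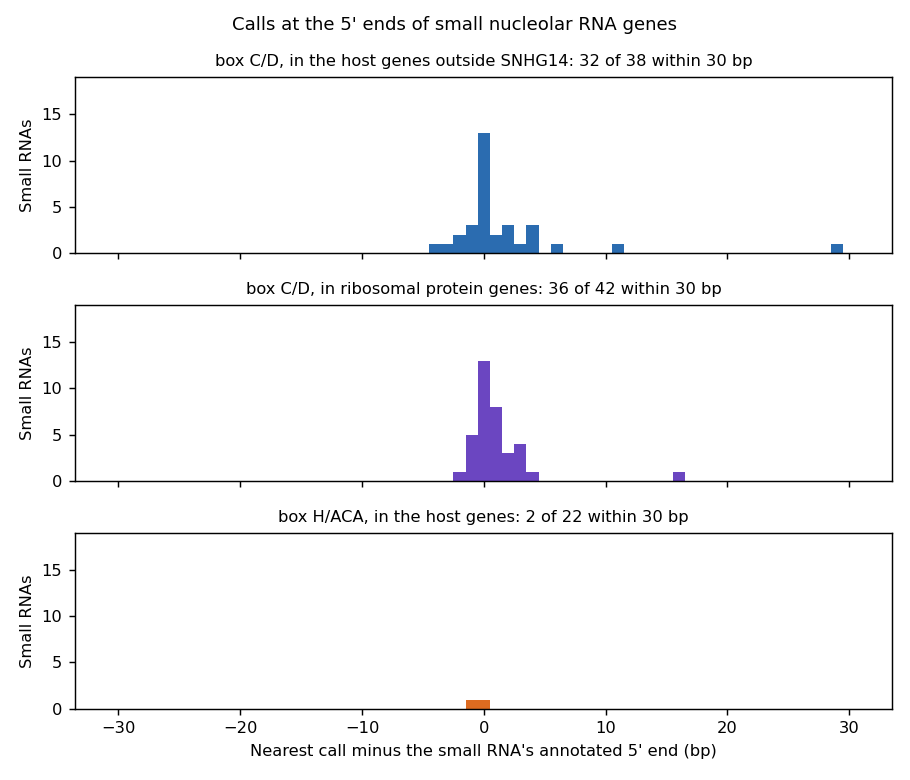
Distance in bp from the annotated 5′ end of each small RNA gene to the nearest call, for calls within 30 bp, in box C/D genes of the hosts outside SNHG14 (top), box C/D genes of ribosomal protein genes (middle) and box H/ACA genes of the hosts (bottom); bars count small RNA genes. The top panel has its highest bar, 13 genes, at 0 bp, and the bottom panel holds 2 genes.

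The 8 box C/D genes without a match were mostly next to another call. SNORD30, SNORD81, SNORD74 and SNORD104 began 236, 223, 244 and 107 bp after an own-strand call, and SNORD75 began 225 bp before one. Over all 28113 gaps between neighbouring calls of a strand, only 2 were under 250 bp. Whether the spacing of the calls set these cases was not tested. SNORD12B, SNORD7 in SNHG30 and SNORD123 in the uncalled SNHG18 were the other 3.

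The number of own-strand calls differed with the small RNA content, and it includes the calls at the small RNA ends themselves. Of 11 called members with a box C/D gene 9 had 2 or more own-strand calls, all but SNHG25 and SNHG30, and of 14 without one 3 did, SNHG3, SNHG8 and SNHG10. Over all called members 12 of 25 had 2 or more (48%), against 28.8% of called other lncRNA genes, 27% of called protein-coding genes, 46.2% of called microRNA hosts and 58.4% of called ribosomal protein genes. With 3 or more there were 8 of 25 (32%), against 7.42% of other lncRNA genes, 8.08% of protein-coding genes, 30.8% of microRNA hosts and 29.9% of ribosomal protein genes. SNHG3, whose calls also lie inside RCC1, is included in both counts. GAS5 and SNHG12 bring the number with 2 or more to 14 of 31 members. When calls at small RNA ends were set aside, an alternative chosen after the data were seen, 7 of 31 members still had 2 or more. Among called box C/D hosts these were SNHG1, SNHG26, SNHG29 and ZFAS1, and among called hosts without such a gene SNHG3 and SNHG10. GAS5 was the remaining member. The split by box C/D content thus rested largely on calls at the small RNA ends. The calls of SNHG1 then fell from 9 to 2, those of GAS5 from 9 to 2 and those of SNHG16 from 4 to 1.

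The same coincidence was counted in the other classes. Own-strand calls other than the promoter call numbered 43 in the called members, with 23 at a small RNA's 5′ end (53.5%), and 98 in ribosomal protein genes, with 41 there (41.8%). In called other lncRNA genes it was 1 of 717 calls (0.139%), and in called protein-coding genes, ribosomal ones included, 89 of 3570 (2.49%). A call can lie at such an end only in a gene that holds a small RNA gene. The other classes were not limited to such genes, whereas the members were chosen by a name given to hosts. The shares therefore do not compare like sets.

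**Figure D5:**
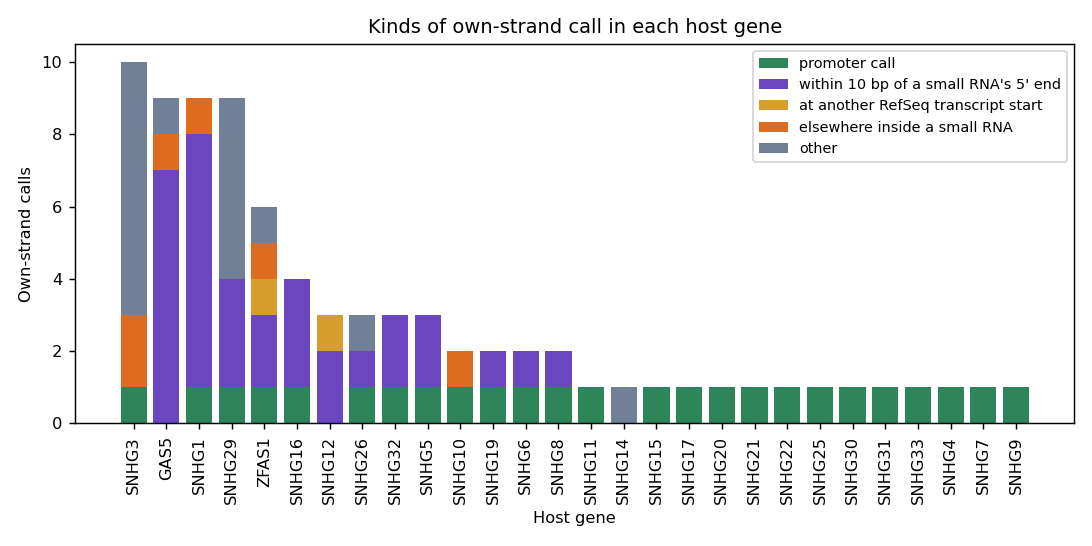
Number of own-strand calls in each of the 28 host genes that had any, divided by kind. SNHG1 and GAS5 each have 7 calls within 10 bp of a small RNA's 5′ end (purple), SNHG3 has 0 such calls among 10, and 13 genes have their promoter call only.

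Runs of calls were found in 5 members, a run being 3 or more own-strand calls with neighbours at most 500 bp apart. They were SNHG1, with 5 calls from 0 to 1190 bp, GAS5, with 5 from 2332 to 3617 bp, SNHG29, with 5 from 3489 to 4857 bp, SNHG3, with 4 from 3674 to 4720 bp, and ZFAS1, with 3 from 77 to 767 bp. Among the called members 4 of 25 had a run (16%), against 2.05% of called other lncRNA genes, 1.67% of called protein-coding genes, 0 of 13 called microRNA hosts and 6.49% of called ribosomal protein genes. With calls at small RNA ends set aside, runs remained in SNHG3 and SNHG29 only. The smallest gap between own-strand calls of a member was 251 bp, in SNHG19.

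SNHG3 and SNHG29 differed from the other hosts with many calls. SNHG3 (gene ID 8420, chromosome 1, 28505943 to 28510892, forward strand), the host of the U17 box H/ACA RNA, held 10 own-strand calls, of which 0 lay within 10 bp of a small RNA end. The calls nearest to its small RNAs lay 168 bp into SNORA73A and 123 bp into SNORA73B. All of its calls also lay inside RCC1, which had 18 own-strand calls, so they cannot be assigned to either gene. In SNHG29 (gene ID 125144, chromosome 17, 16438987 to 16470648, forward strand) the run of 5 calls lay 1250 to 2618 bp past the start of SNORD65, the last of its small RNAs.

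Own-strand calls continued past the annotated 3′ end in 12 members, with 34 calls within 2000 bp of it; calls there at the start of a following gene were not set aside. Among called members the share was 11 of 25 (44%), against 3.5% of called other lncRNA genes, 8.52% of protein-coding genes, 30.8% of microRNA hosts and 51.9% of ribosomal protein genes. For 3 or more such calls it was 7 of 25 (28%), against 0.422%, 1.07%, 7.69% and 15.6% in the same order. These shares were computed after the member counts were seen. SNHG25, 340 bp long, had 6, between 125 and 1801 bp past its end. SNHG3 had 5, SNHG6 had 4, and SNHG1, SNHG8, SNHG19, SNHG32 and GAS5 had 3 each. Of the 8 members with 3 or more, 7 also had 2 or more calls inside the gene. Calls past the end of SNHG3 lie inside RCC1.

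Of 45 listed genes around the small RNAs and their hosts, 43 were called (95.6%, against 41.6% of protein-coding genes). With a window of 100 bp 40 were called. The list was chosen with results of these data known, so the shares are set side by side without a test. The 20 listed genes that encode particle proteins, assembly factors and enzymes acting on the intron or the cap had 19 called (95%). The other 25 were decay factors and protein-coding hosts. All 4 core proteins of box H/ACA particles (DKC1, NHP2, NOP10 and GAR1) and 3 of the 4 of box C/D particles were called, all but SNU13. All 10 assembly factors, DBR1, which opens the excised intron lariat, and TGS1, an enzyme acting on the cap, were called. So were 7 of 8 factors of nonsense-mediated decay, all but the kinase gene SMG1. All 17 listed protein-coding hosts were called, and 15 of them had 2 or more own-strand calls. Of their 54 calls other than promoter calls, 23 (42.6%) lay within 10 bp of a small RNA's 5′ end. The list overlaps with other classes: RCC1, with 18 own-strand calls, contains those of SNHG3, and RPSA is also a ribosomal protein gene. NOP56 and NOP58, core box C/D proteins that are hosts themselves, had 5 own-strand calls each, and 6 of their 8 calls past the promoter (75%) lay at such an end.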

How the data were processed

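PRO-seq calls of HUDEP-2 cells were analysed. Per the file headers, the authors called start sites with TSScall on 1 sorted, de-duplicated alignment; the submitters' processing notes give hg38 as build and list deepTools 3.5.4, SAMtools 1.17, Picard and BWA 0.7.16a. The sources used here give neither a version nor a read minimum for TSScall. The score column deposited by the authors was 0 in every call, and the depth is unknown. Each call, deposited as an interval of 1 base, is a position and not a normalised value; the interval's end served as 1-based position.

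Of 28283 calls, 28159 on chromosomes 1 to 22 and X were used. Gene ends and small RNA genes came from the RefSeq table of GRCh38.p14, and gene strands from the RefSeq promoter table; for genes without a strand there, the end nearest a call was used. Ribosomal protein genes and microRNA host genes were taken by symbol. All members could be named, with small RNAs inside them, neighbours starting within 1000 bp, and listed pathway genes; other choices of name followed the values. The members and lists were chosen with earlier results of these data known. No test was made: lists are described by counts beside all genes of their class. Alternatives were other windows, merging of calls, pairing and run distances, tract lengths and the BED start as position. The scripts were tested on simulated data. Software was pandas 2.3.3, numpy 2.4.6, matplotlib 3.10.9 and scipy 1.17.1 under Python 3.11.15.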

Additional observations from a re-analysis of the deposited data

How the results depend on the processing

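The counts of members with a promoter call (24 to 28), the median offset (1 to 3 bp), the members with a divergent partner (18 or 19), the matched small RNA genes (25 to 34) and the called pathway genes (40 to 43) stayed close to their values under each alternative run for them. Members with 2 or more own-strand calls numbered 14, and 7 without calls at small RNA ends. Members with a run numbered 5, but 2 with gaps of at most 300 bp and 2 without calls at small RNA ends. Members with a tract at the call numbered 5, but 1 with at least 6 pyrimidines after the C and 10 with the C within 2 bases of the call. Setting aside calls at small RNA ends, the other distances for a match and the other windows for pathway genes were chosen after the data were seen. No paired analysis was possible because the lists have no column per sample. The lists come from 1 alignment, with no read count per call, so a gene without a call was not detectable at an unknown depth and is not shown to be silent.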
